A study of Mus musculus with 4 samples.

Results

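The mouse Fam13 family consists of 3 paralogous genes, Fam13a, Fam13b and Fam13c, and their transcripts were compared in gonadotropes of Gata2 conditional knockout (cKO) and control mice. The genes were taken from the deposited count table by identifier, and all 3 were found among its 54532 rows. The set was chosen by the CPM of Fam13a, which was lower in cKO than in control libraries, so the change of Fam13a is given below as a description and without a test, whereas Fam13b and Fam13c were added by name as its paralogues. All 3 passed the filter on low counts, as did 17349 genes in all.

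The libraries came from 2 samples of cKO gonadotropes and 2 of control gonadotropes, all from male mice of mixed strain aged 10 to 12 weeks. Gonadotropes are the pituitary cells that make luteinizing hormone and follicle-stimulating hormone, and the protein made from Gata2 is a zinc-finger transcription factor that binds GATA sequences. The cells were isolated by flow sorting according to the sample labels, although the design text speaks of pituitaries, and their poly(A) RNA was sequenced. The title of the series calls the deletion gonadotrope-specific; the sources used here give neither the Cre driver nor the alleles of the controls, nor whether animals were pooled. Separate animals per library are not stated either, so p-values reflect only how far these libraries vary, and that variation may be technical.

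Proteins of the FAM13 family are best known from human genetics. The long form of human FAM13A and human FAM13B carry a RhoGAP domain, and human FAM13C lacks it. Variants near human FAM13A are associated with lung function, chronic obstructive pulmonary disease and body fat distribution, and variants near human FAM13B with atrial fibrillation. In mouse lung, Fam13a has been linked to the degradation of beta-catenin together with protein phosphatase 2A (PP2A).

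The paralogues lie on 3 chromosomes. Fam13a (ENSMUSG00000037709.13) is on the minus strand of mm10 chromosome 6, from 58932090 to 59024549, Fam13b (ENSMUSG00000036501.6 in the deposited table) on the minus strand of chromosome 18, from 34442351 to 34506831, and Fam13c (ENSMUSG00000043259.15) on the plus strand of chromosome 10, from 70440481 to 70558736. Positions are those of GENCODE M21, in which Fam13b has version 7 of its model (ENSMUSG00000036501.7). The merged exons cover 10505 bases in Fam13a, 9061 in Fam13b and 8263 in Fam13c, and the longest annotated coding sequences have 2079, 2553 and 1803 bases in the same order. GENCODE M21 lists 2 protein-coding transcripts for Fam13a, 2 for Fam13b and 3 for Fam13c, and the counts are sums over each gene, so isoforms cannot be separated here. Whether these mouse transcripts encode the RhoGAP domain was not examined.

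The start region of Fam13a is shown because the deleted protein is a GATA-binding factor and Fam13a was the family member that moved most. The sequence is that of RefSeq (GRCm38.p6, the assembly also called mm10), read 5′ to 3′ on the strand of the gene. The first line is chr6:59024550-59024752, which lies upstream of the GENCODE start. The second line is chr6:59024456-59024485, downstream of the RefSeq start, with GATA on the gene's strand and its reverse complement TATC in capitals.

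Fam13a upstream: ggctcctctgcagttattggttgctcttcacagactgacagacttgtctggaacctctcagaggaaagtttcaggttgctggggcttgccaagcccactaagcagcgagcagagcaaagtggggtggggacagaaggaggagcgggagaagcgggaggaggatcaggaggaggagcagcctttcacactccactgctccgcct

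Fam13a GATA stretch: tgtggaggcagccGATAaaTATCcttgcct

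Windows from 250 bases before to 50 bases after the annotated start were matched by symbol for Fam13a (1 window) and Fam13c (2 windows), and not for Fam13b. GATA, counted on both strands, occurred 2 times in the Fam13a window, at positions 31 and 37 counted from the RefSeq start as 1. This start lies downstream of the GENCODE start, and a window set the same way on the GENCODE start would not reach these 2 matches. GATA occurred 2 times in one Fam13c window and 0 times in the other, and 57.9% of the 32851 RefSeq windows held it. The longer form GATAA, which contains GATA, again on both strands, was found at position 31 of Fam13a, in 0 of the 2 Fam13c windows and in 25.4% of all windows. These matches describe letters in the window and say nothing of binding.

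Total estimated counts were 15541553 and 18362182 in cKO replicates 1 and 2, and 10646909 and 21135301 in control replicates 1 and 2. Gata2 itself had 221 and 214 CPM (counts per 1000000 library counts, after TMM scaling) in the cKO libraries, against 537 and 526 CPM in the control libraries, a log2 difference of -1.29 (SE 0.14, adjusted p = 0.0473 by edgeR). Control replicate 1 stood apart, with Pearson's r across genes of 0.841 to 0.889 with the other 3 libraries, which correlated with each other at 0.902 to 0.928. The libraries did not group by genotype. Control replicate 2 correlated at 0.917 and 0.928 with cKO replicates 1 and 2, and at 0.889 with control replicate 1. The gonadotrope markers were present in every library, and the summed level of the 9 fixed markers was 9825 and 10944 CPM in the cKO libraries and 19480 and 17206 CPM in the control libraries. Pomc, whose product is cut into the hormones of corticotropes and melanotropes, was also high, at 6032 and 7145 CPM in the cKO libraries and 7161 and 9813 CPM in the control libraries. Prl, the prolactin gene of lactotropes, had 1249 and 1271 CPM in the cKO libraries and 312 and 583 CPM in the control libraries (log2 fold change 1.49, SE 0.27, edgeR adjusted p = 0.248). Sox9, a marker of pituitary stem cells, had 58.0 and 73.0 CPM in the cKO libraries and 24.4 and 27.4 CPM in the control libraries (1.34, SE 0.28, edgeR adjusted p = 0.385). Lhx3, the most abundant of the stem cell markers, had 180 and 152 CPM in cKO and 131 and 170 CPM in controls (0.14, SE 0.20). Gh, for growth hormone and in the same list as Prl, overlapped between the groups (-0.47, SE 0.69). Among thyrotrope markers Dio2 had 0.88 (SE 0.25) and Tshb -1.32 (SE 0.57). Of the 9 gonadotrope markers edgeR called 1 lower, Fshb (log2 fold change -2.01, SE 0.18, adjusted p = 0.038), against 0.0461% of all genes. Of 30 tested markers in 8 lists of other cell types, 0 passed by edgeR and 5 had an unadjusted p under 0.05, against 7.04% of all genes. Both cKO libraries were above both control libraries in 10 of the 30, against 19.7% of all tested genes, and below them in 4, against 19.3%. In such bulk samples fewer cells of a type cannot be told apart from less RNA per cell.

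Fam13a was the most abundant family member in controls and lost that place in cKO. It had 21.1 and 22.6 CPM in cKO replicates 1 and 2, against 130 and 104 CPM in control replicates 1 and 2. Both cKO libraries were low and close to each other, and the groups did not overlap, as in 39.0% of all tested genes. The cKO level averaged 21.8 ± 1.06 CPM and the control level 117 ± 18.1 CPM (SD, n = 2 each), so that 18.7% of the control level remained, a log2 fold change of -2.42 (SE 0.24). The counts behind these levels were 328 and 402 in cKO and 1425 and 2175 in controls. In the same libraries 7 of the 9 gonadotrope markers had a lower CPM in both cKO libraries than in either control library, against 19.3% of all tested genes, and the part of these markers and of those of other cell types in the Fam13a value was not tested.

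Among the tested genes Fam13a stood near the middle of the range of levels in cKO and in its upper part in controls. In the cKO libraries 55.6% and 56.8% of tested genes had a lower CPM than Fam13a, and in the control libraries 91.0% and 87.5% did. The log2 gap between libraries of a group was 0.10 in cKO and 0.32 in controls, where the median gap over all tested genes was 0.42 in cKO and 0.56 in controls. The log2 fold change of Fam13a lay between -2.26 and -2.56 when each library was left out in turn.

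**Figure D1:**
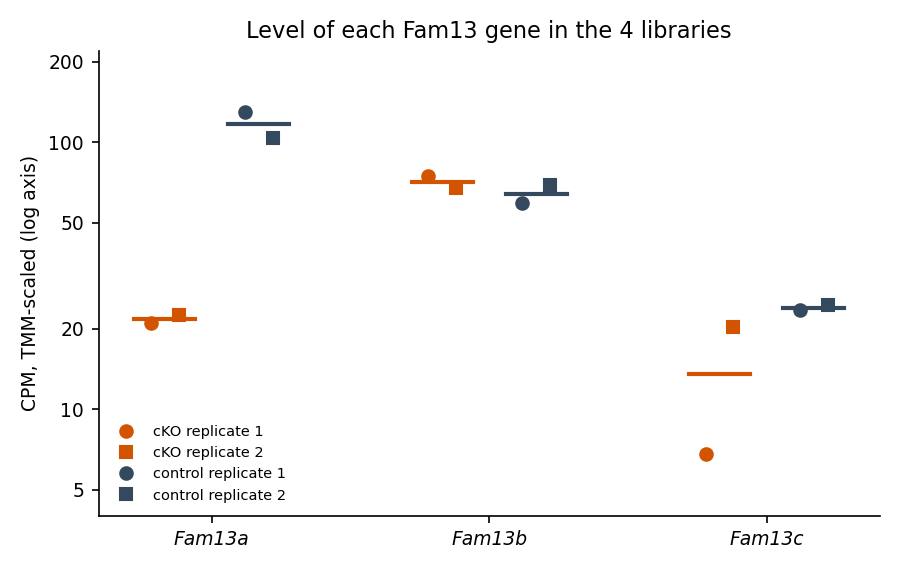
CPM of Fam13a, Fam13b and Fam13c on a log axis, with 1 point per library (orange, cKO; dark blue, control; circle, replicate 1; square, replicate 2) and a bar at each group mean. Fam13a sits at 21.1 and 22.6 CPM in cKO and at 130 and 104 CPM in controls, Fam13b overlaps between groups, and Fam13c is spread between the cKO libraries.

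Fam13b, the paralogue of Fam13a whose human form also carries the RhoGAP domain, did not pass the test. It had 74.9 and 67.2 CPM in the cKO libraries, against 59.2 and 69.0 CPM in the control libraries. The second cKO library lay between the 2 control libraries, so the groups overlapped. Its mean was 71.1 ± 5.44 CPM in cKO and 64.1 ± 6.90 CPM in controls (SD, n = 2 each), a difference of 0.15 on the log2 scale (SE 0.23, adjusted p = 0.999 by edgeR). A range of 2 SE either side ran from -0.31 to 0.60 on the log2 scale.

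Fam13c, the paralogue whose human form lacks the domain, differed more between the cKO libraries than between the groups. It had 6.82 and 20.3 CPM in cKO replicates 1 and 2, against 23.5 and 24.6 CPM in the control libraries. Both cKO libraries were below both control libraries, an order that 19.3% of all tested genes shared, but the second cKO library was close to the controls. The means were 13.6 ± 9.57 CPM in cKO and 24.0 ± 0.780 CPM in controls (SD, n = 2 each), a difference of -0.82 on the log2 scale (SE 0.58, adjusted p = 0.919 by edgeR) and a range of 2 SE either side from -1.99 to 0.35.

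The size of the Fam13c difference changed with the cKO library left out. Without cKO replicate 1 the log2 fold change was -0.24 (SE 0.65), and without cKO replicate 2 it was -1.83 (SE 0.82), neither past the threshold. The log2 gap of Fam13c between the cKO libraries was 1.51, and 16.4% of tested genes had a larger one. Its counts were 106 and 362 in cKO and 258 and 514 in controls. Among markers of other cells, Gh, for growth hormone, had 2149 and 385 CPM in cKO replicates 1 and 2, and 1124 and 2375 CPM in control replicates 1 and 2. Prl, another lactotrope and somatotrope marker, had 1249 and 1271 CPM in cKO and 312 and 583 CPM in controls. In the same order of libraries, Fam13c had 6.82 and 20.3 CPM in cKO and 23.5 and 24.6 CPM in controls. Summed over the 5 lactotrope and somatotrope markers the level was 3452 and 1704 CPM in cKO and 1467 and 2992 CPM in controls, and over the 5 macrophage and leukocyte markers it was 3.15 and 14.2 CPM in cKO and 24.8 and 10.4 CPM in controls. Only 2 of these leukocyte markers were tested. Corticotrope and melanotrope markers summed to 6338 and 7507 CPM in cKO against 7528 and 10201 in controls. Thyrotrope markers had 136 and 92.3 against 77.2 and 68.7, and stem cell markers 262 and 249 against 168 and 218. Endothelial markers had 19.0 and 10.1 against 17.55 and 30.5. Fibroblast and pericyte markers had 18.6 and 12.7 against 0.091 and 15.6, and erythroid markers 16.1 and 1.9 against 34.6 and 7.17. The part of these cells in the Fam13c value was not tested.

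**Figure D2:**
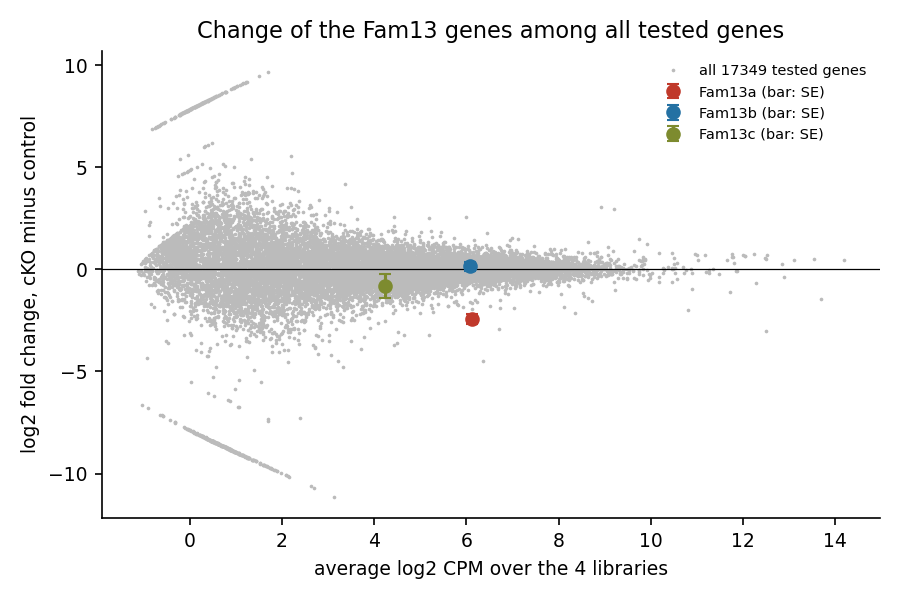
Log2 fold change (cKO minus control) against average log2 CPM for all 17349 tested genes (grey) and for the 3 Fam13 genes (coloured, bars are SE). Fam13a lies at -2.42, Fam13b at 0.15 and Fam13c at -0.82; the grey diagonal bands at the left hold genes with no count in 1 group, whose fitted value depends on the prior count.

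Of the 17349 genes tested, 10 passed an edgeR adjusted p of 0.05, which is 0.0576%, 8 of them lower in cKO (0.0461%) and 2 higher (0.0115%). Neither Fam13b nor Fam13c was among them, and neither was called by DESeq2 or limma-voom. An unadjusted p under 0.05 was reached by 7.04% of tested genes, and the unadjusted p-values of the same edgeR test were 0.534 for Fam13b and 0.202 for Fam13c. The median log2 fold change over all tested genes was 0.03.

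Levels were compared between paralogues per kilobase of merged exon. Fam13a had 2.01 and 2.15 CPM per kilobase in the cKO libraries, against 12.3 and 9.89 in the control libraries. Fam13b had 8.27 and 7.42 CPM per kilobase in cKO, against 6.53 and 7.61 in controls. Fam13c had 0.825 and 2.46 CPM per kilobase in cKO, against 2.84 and 2.97 in controls.

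The order of the paralogues by level per length therefore differed between the genotypes. In both control libraries it was Fam13a, Fam13b, Fam13c. In both cKO libraries Fam13b came first. Fam13a and Fam13c changed places between the cKO libraries and did not differ beyond their spread. The change of order rests on the fall for which Fam13a was chosen, so no test was made of it. In a library, Fam13a stood at 0.243 and 0.290 of the Fam13b level in cKO and at 1.89 and 1.30 of it in controls.

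As a share of the family's counts per length, Fam13a made up 18.1% and 17.9% in the cKO libraries, against 56.8% and 48.3% in the control libraries. Fam13b made up 74.5% and 61.7% in cKO, against 30.1% and 37.2% in controls. The share of Fam13c was 7.43% and 20.5% in cKO and 13.1% and 14.5% in controls. The mean share of Fam13a was 18.0 ± 0.149% in cKO and 52.6 ± 6.01% in controls (SD, n = 2 each). Since the share rests on the fall for which Fam13a was chosen, no test was made of it.

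The summed level of the family was lower in cKO, at 11.1 and 12.0 CPM per kilobase, than in controls, at 21.7 and 20.5. The sum includes the fall for which Fam13a was chosen, so no test was made of it. Fam13b was not called, and its log2 fold change was 0.15. Fam13c relative to Fam13b stood at 0.0998 and 0.332 in cKO and at 0.435 and 0.391 in controls.

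**Figure D3:**
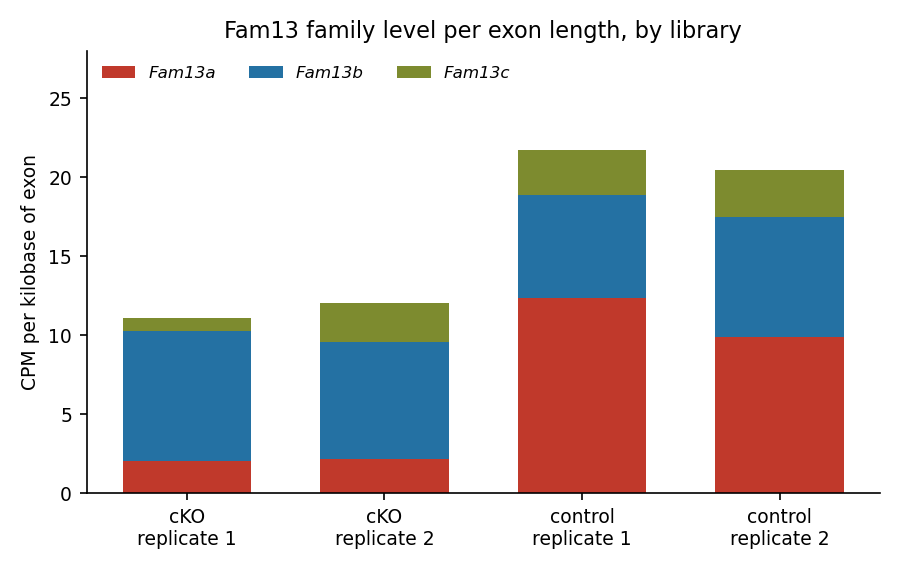
CPM per kilobase of merged exon, stacked for Fam13a (red), Fam13b (blue) and Fam13c (green), with 1 bar per library and the cKO libraries at the left. The red part is 2.01 and 2.15 in cKO and 12.3 and 9.89 in controls, and the blue part is 6.53 to 8.27 in all 4 libraries.

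Sequence shared exactly between the paralogues was short. The longest stretch of identical sequence between annotated transcripts, on either strand, was 19 bases for Fam13a and Fam13b, 18 bases for Fam13a and Fam13c and 14 bases for Fam13b and Fam13c. Counts of all 3 genes were whole numbers in all 4 libraries, whereas 4.5% of all values in the deposited table were not.

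Genes on the opposite strand touch each paralogue, and whether reads were counted by strand is not stated. Fam13a shares 78 exon bases with Gm45061, which had 0 counts in all 4 libraries. The antisense genes BB365896 and Gm45060, which share 0 exon bases with it, reached at most 6 and 27 counts in any library. The 3′ ends of Fam13b and Pkd2l2 overlap by 631 exon bases, and Pkd2l2, a polycystin-like channel gene, had 21.5 and 30.6 CPM in cKO and 13.4 and 13.8 CPM in controls (log2 fold change 0.94, SE 0.43, edgeR adjusted p = 0.725). Fam13c shares 1055 exon bases with Phyhipl, which had 86.1 and 72.7 CPM in cKO and 77.2 and 62.7 CPM in controls (log2 fold change 0.18, SE 0.23, edgeR adjusted p = 0.999). How far reads from these partners enter the counts of Fam13b and Fam13c was not tested.

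Fam13a and Gata2 lie on the same chromosome, 29.2 megabases apart, so the neighbourhood of Fam13a was described too. Of 13 other protein-coding genes with a start inside 1000000 bases of either end, 8 were vomeronasal receptor genes (Vmn1r) with 0 counts in all libraries and 5 were tested. All 5 had a log2 fold change below 0, as 47.6% of all tested genes did, and 0 of 5 passed the edgeR test, against 0.0576% of all genes. An unadjusted p under 0.05 was reached by 1 of 5, Nap1l5, against 7.04% of all genes. DESeq2 also called Nap1l5 lower, 1 of 5 against 5.44% of all genes, and limma-voom called 0, against 1.48%.

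The closest were Nap1l5 and Herc3. Nap1l5, an imprinted gene in an intron of Herc3, had 222 and 258 CPM in cKO, against 318 and 318 CPM in controls, which is -0.41 on the log2 scale (SE 0.15, adjusted p = 0.679 by edgeR). Herc3, which codes for a ubiquitin ligase of the HECT type, had 123 and 144 CPM in cKO, against 147 and 163 CPM in controls (-0.22, SE 0.18, edgeR adjusted p = 0.959). In both genes, and in Gprin3, the cKO libraries were below the control libraries, an order seen in 19.3% of all tested genes.

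The other 3 tested neighbours were lower in level. The log2 fold change of Gprin3 was -0.51 (SE 0.62), that of the transporter gene Abcg2 was -0.38 (SE 1.26) and that of Tigd2 was -0.19 (SE 0.40). Between Fam13a and Gata2 166 genes were tested, 0 passed by edgeR and the median log2 fold change was -0.01. An unadjusted p under 0.05 was reached by 14 (8.43%, against 7.04% of all genes), and DESeq2 called 11 (6.63%, against 5.44%) and limma-voom 3 (1.81%, against 1.48%). The cKO libraries were below the control libraries in 19.3% of these 166 genes, the same percentage as over all genes.

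**Figure D4:**
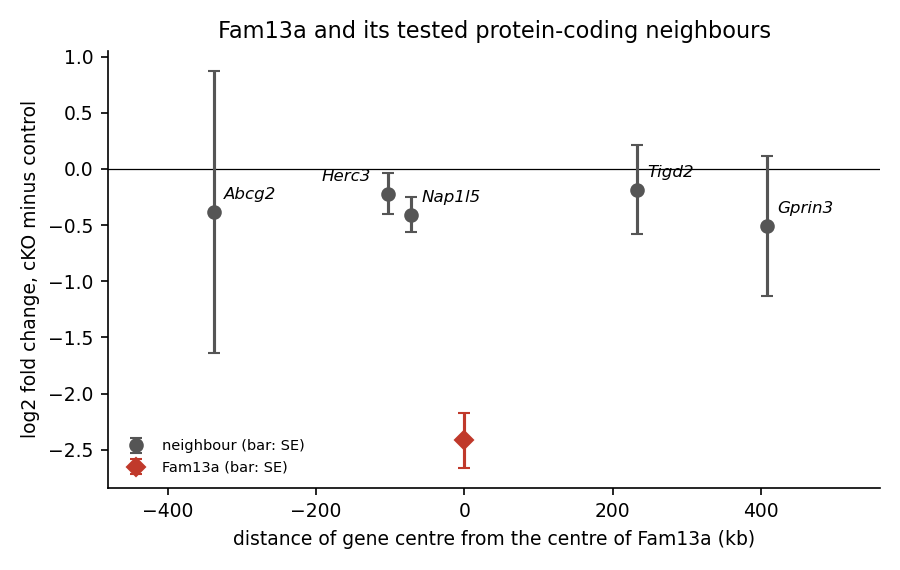
Log2 fold change (cKO minus control, bars are SE) of Fam13a (red diamond) and of its 5 tested protein-coding neighbours (grey) against the distance between gene centres in kilobases. Fam13a stands at -2.42, and the neighbours lie between -0.51 and -0.19.

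The genes whose pattern over the 4 libraries was most like that of Fam13a were found by the distance between log2 CPM values centred on each gene's mean, among 11618 genes whose average log2 CPM was 2 or more. The 5 closest were Creb3l4 (distance 0.39), Clec11a (0.41), Serpine2 (0.42), Fshb (0.43) and Rin2 (0.47), and the median distance was 2.48. Serpine2, a serine protease inhibitor gene, had 137 and 109 CPM in cKO and 563 and 509 CPM in controls. Fshb, for the beta subunit of follicle-stimulating hormone, had 618 and 812 CPM in cKO and 3263 and 2496 CPM in controls. The other 3 were scarce, at 1.22 to 2.98 CPM in cKO and 6.31 to 14.8 CPM in controls. Fam13c ranked at place 902 (distance 1.74) and Fam13b at place 6723 (distance 2.57). With 4 libraries, likeness of this kind describes the same split between groups and nothing more.

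Genes of pathways in which FAM13 proteins have been placed were described from 7 lists with 133 tested genes. By edgeR 0 of the 133 passed, against 0.0576% of all genes. An unadjusted p under 0.05 was reached by 17 of them (12.8%, against 7.04% of all genes), DESeq2 called 13 (9.77%, against 5.44% of all genes) and limma-voom 3 (2.26%, against 1.48%). The cKO libraries were below the controls for 21.1% and above them for 24.8% of these genes, against 19.3% and 19.7% of all tested genes.

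Without control replicate 2, edgeR called 4 of 136 tested pathway genes, Myc and Ppp2r2c among them, and without cKO replicate 2 it called 1 of 136, Etfa. These are 2.94% and 0.74% of the pathway genes, against 3.50% and 0.503% of all genes tested under the same settings. With all 4 libraries but no filter on low counts, edgeR called 3 of 141 pathway genes (2.13%), Myc, Ppp2r2c and Etfa. That setting called 253 genes in all. Of the pathway genes named below, DESeq2 called Abr and Etfa lower, and Arhgap32, Lrp5, Myc, Ppp2r2c, Ywhag, Cpt1c and Irs2 higher.

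RhoGAP genes outside the family were split between the directions. Of 51 tested members 27 had a log2 fold change below 0, against 47.6% of all tested genes. The median was -0.05, beside 0.03 over all genes. Abr, the most abundant and a GAP for Rac, had 254 and 307 CPM in cKO, against 426 and 431 CPM in controls (log2 fold change -0.61, SE 0.15, edgeR adjusted p = 0.499). Arhgap35, for p190RhoGAP, had -0.43 (SE 0.16), while Arhgap32 had 190 and 182 CPM in cKO, against 121 and 132 CPM in controls (0.55, SE 0.17, edgeR adjusted p = 0.603). Arhgap6, named after its values were seen, had 0 counts in both cKO libraries and 51 and 23 in the control libraries. The fitted log2 fold change of Arhgap6 was -8.55 (SE 3.53), a size that depends on the prior count, and edgeR did not call it. Among the 17349 tested genes, 245 had no count in either cKO library and 137 had none in either control library.

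Beta-catenin pathway genes stood near the background as a group. The 24 core members had a median log2 fold change of 0.04. Ctnnb1, for beta-catenin itself, had 275 and 283 CPM in cKO, against 298 and 360 CPM in controls (-0.24, SE 0.16, edgeR adjusted p = 0.898). Axin1, a scaffold of the destruction complex, had -0.71 (SE 0.26), the Wnt co-receptor gene Lrp5 0.48 (SE 0.17) and Csnk1a1, for casein kinase 1 alpha, 0.26 (SE 0.16).

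Of 11 tested beta-catenin target genes 7 were below 0, against 47.6% of all tested genes, and the median was -0.18. Axin2, the feedback target most often used as a reporter of the pathway, had 47.8 and 37.9 CPM in cKO and 38.0 and 59.0 CPM in controls, so that the groups overlapped (-0.18, SE 0.32, edgeR adjusted p = 0.999). Myc had 65.3 and 84.4 CPM in cKO, against 24.6 and 45.3 CPM in controls (1.09, SE 0.35, edgeR adjusted p = 0.629), and Ccnd1, for cyclin D1, had -0.57 (SE 0.37).

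PP2A subunit genes had a median log2 fold change of -0.0003 over 16 tested members, 8 above and 8 below 0. Ppp2r2c, for a regulatory subunit of the B class, had 290 and 326 CPM in cKO, against 155 and 216 CPM in controls (log2 fold change 0.73, SE 0.20, edgeR adjusted p = 0.546). Ppp2r1a, for the scaffold subunit, had -0.37 (SE 0.16) and Ppp2r2b, for another B-class subunit, -0.70 (SE 0.30).

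The 14-3-3 genes, whose proteins bind phosphorylated partners including human FAM13A, had a median of 0.25. Of the 7 tested, 1 was below 0, against 47.6% of all tested genes, and edgeR called 0. Ywhag had 570 and 500 CPM in cKO, against 379 and 428 CPM in controls (0.41, SE 0.15, edgeR adjusted p = 0.654), Ywhaz had 0.31 (SE 0.20) and Ywhae 0.15 (SE 0.13).

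Mitochondrial fatty acid oxidation genes had a median of -0.07 over 18 tested members. Cpt1a, for the liver form of the carnitine palmitoyltransferase that admits fatty acids to mitochondria, had 126 and 115 CPM in cKO, against 87.8 and 97.3 CPM in controls (0.38, SE 0.19, edgeR adjusted p = 0.756). The related gene Cpt1c had 0.64 (SE 0.20). Etfa, for an electron transfer flavoprotein subunit, had 26.1 and 48.3 CPM in cKO, against 79.1 and 82.1 CPM in controls (-1.11, SE 0.33, edgeR adjusted p = 0.593). Hadha, for a subunit of the trifunctional protein, had -0.10 (SE 0.17).

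Of the 6 genes for the insulin receptor, its substrates and AKT kinases, 3 were above and 3 below 0. Irs2 had 503 and 583 CPM in cKO, against 379 and 427 CPM in controls (0.43, SE 0.15, edgeR adjusted p = 0.647), and Akt2 had -0.21 (SE 0.17).

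**Figure D5:**
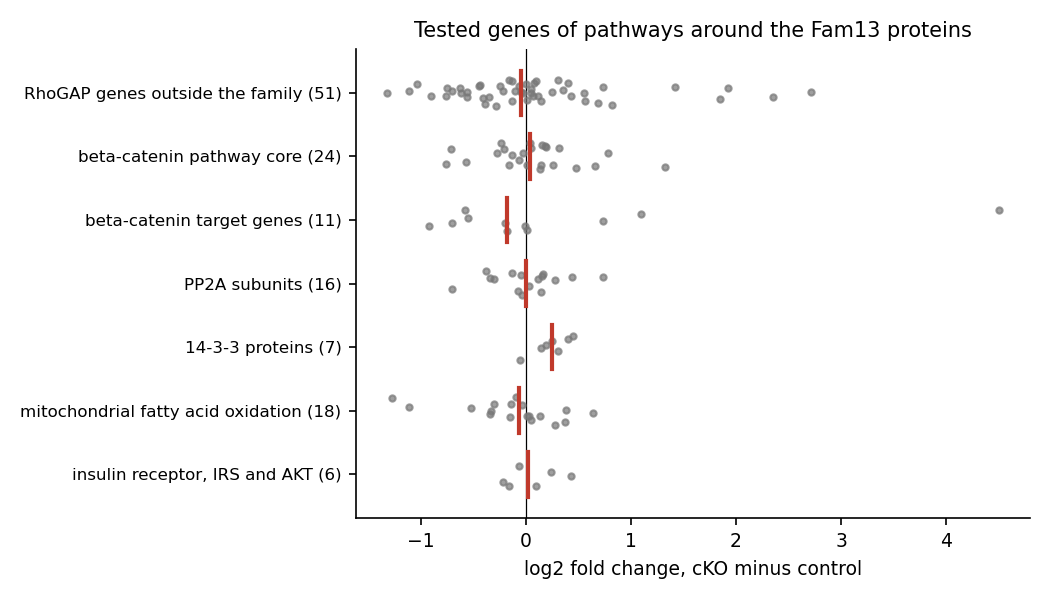
Log2 fold change (cKO minus control) of the tested genes in 7 lists, with 1 grey point per gene, the number of tested genes in parentheses and a red bar at each list's median. Arhgap6, with no count in cKO, is in the median but not drawn; the medians lie between -0.18 and 0.25.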

How the data were processed

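Poly(A) RNA of sorted gonadotropes was sequenced in 4 libraries, 2 of cKO and 2 of control mice, grouped by the sample titles. Per the submitters' processing notes, the tools were STAR (2.5.1b) and featureCounts (1.5.0-p1) and the build was mm10; no source used here gives the annotation release or the strand setting. The deposited values are estimated counts, not scaled between libraries, and 4.5% were not whole (tolerance 0.001). Identifiers, version removed, were matched to GENCODE M21 (54495 of 54532; 53315 with the version).

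Counts were rounded, filtered with filterByExpr (minimum count 10, minimum total 15), scaled by TMM and tested with edgeR 4.0.16 (quasi-likelihood F-test, two-sided, group as the term, R 4.3.3), with Benjamini-Hochberg adjustment over all genes and 0.05 as the threshold. The SE was the log2 fold change divided by the square root of F. Log2 CPM values for comparing libraries had a prior of 0.5 CPM. Counting error aside, 2 libraries per group limit the precision. DESeq2 1.42.0 and limma 3.58.1 were alternatives.

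Replicate numbers 1 and 2 recur in both groups, but the labels give no pairing. The members and lists were chosen with earlier results of these data known. From each list, called members, the 2 most abundant and the 2 with the smallest p were named, from cell type markers at most 2, and from the likeness ranking 5. A further set of pathway genes is not reported here.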

Additional observations from a re-analysis of the deposited data

How the results depend on the processing

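The log2 fold changes of Fam13a, Fam13b and Fam13c kept their direction, and Fam13b and Fam13c their side of the threshold, under all 15 alternatives, of which edgeR's newer quasi-likelihood form was chosen after seeing the data. Values with 1 library left out lay between -2.56 and -2.26 for Fam13a, 0.04 and 0.27 for Fam13b, and -1.83 and -0.24 for Fam13c, and the difference in the Fam13a share lay between -38.8 and -30.3 percentage points. The 10 genes called became 943 by DESeq2, 256 by limma-voom, 253 without a filter, 47 by the newer form, 26 by robust estimation, 3 at a minimum of 1 CPM in 2 libraries, and 66, 681, 73 and 100 without control replicates 1 and 2 and cKO replicates 1 and 2. The cause was not tested. A group left with 1 library is assumed to vary like the other. The replicate block gave 7 genes and log2 fold changes of -2.41, 0.15 and -1.02 for the 3 members; same-numbered libraries did not deviate together (correlation -0.01). Directions turned with 1 library left out for Axin2 (-0.47 to 0.17) without control replicate 2, for Abcg2 (-1.22 to 0.37) without control replicate 2 and, at 0.14, without cKO replicate 1, and for Tigd2 (-0.55 to 0.093) without cKO replicate 2, none of them called. Gata2 lost its call with 1 CPM in 2 libraries (adjusted p = 0.0620) and under the block (adjusted p = 0.0643). Fshb lost its call with 1 CPM in 2 libraries (edgeR adjusted p = 0.0531). Each member had 106 to 2175 counts per library, and counting error was not separated from the spread between libraries.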
